A study of Mus musculus with 4 samples.

Results

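Binding of BRG1/BRM, which drive BAF (SWI/SNF) chromatin remodelling as its ATPases, was examined around 9 transcription factor genes that specify the projection neurons of the cerebral cortex. The members were taken by name, with earlier results of these data known, and their islands by position. An island is a region of enriched reads called by the authors, and every island in or within 100 kb of a member gene was kept. This gave 65 of the 20966 islands of the KCl list and 3 of the 711 islands of the basal list. The genes fell into 5 deep-layer factors (Tbr1, Fezf2, Bcl11b, Sox5 and Zfpm2) and 4 upper-layer factors (Cux1, Cux2, Pou3f2 and Pou3f3), and no island lay in the windows of more than 1 of them.

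The neurons were wild-type mouse primary cells from E16.5 embryonic cortex, harvested after 6 days in vitro. KCl cultures had been silenced on day 5 by TTX at 1 µM, which blocks sodium channels, and APV at 100 µM, which blocks NMDA receptors, and then received 50 mM KCl for 1 h, which depolarizes the cells. Basal cultures stayed at the basal KCl level, and the labels do not say whether they were silenced too. Chromatin was immunoprecipitated (IP) with the J1 antibody, which recognizes BRG1 and BRM alike, and each condition has 1 IP library and 1 input. Thus no difference between KCl and basal has a replicate check and none was tested. The islands cannot be assigned to deep-layer or upper-layer cells, and binding in more cells cannot be told apart from more binding per cell.

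Cortical projection neurons are born in an inside-out order, and each class depends on transcription factors that promote its own fate and repress the alternatives. Deep-layer neurons project out of the cortex. Among their factors, the T-box factor Tbr1 specifies corticothalamic neurons, the zinc finger factor Fezf2 specifies subcerebral neurons, and the zinc finger factor Bcl11b acts downstream of Fezf2 in the same neurons. The HMG-box factor Sox5 controls the order in which deep-layer subtypes appear, and Zfpm2, a zinc finger cofactor of GATA proteins, is found in corticothalamic neurons. Upper-layer neurons connect cortical areas with each other. Their factors include the cut-homeodomain proteins Cux1 and Cux2, which shape dendrites and spines, and the POU-homeodomain proteins Pou3f2 and Pou3f3, which act together in the migration and production of these neurons. Bcl11b is also a dedicated subunit of neural BAF complexes.

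Total library depth is not given in the sources used here. KCl islands held 1433200 IP reads and 400612 control reads over the whole list, and basal islands held 142021 IP reads and 130865 control reads. The fold of an island is the authors' enrichment value, in which IP reads over control reads are scaled by a constant of the list. Brackets after a fold give the 95% exact (Clopper-Pearson) interval from both read counts, which covers counting error only.

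The promoters of the 5 genes whose listed RefSeq transcription start lay under a KCl island are shown first, with that of Fezf2 for contrast, whose start lay under none. Each sequence holds the 250 bases before the start, read 5′ to 3′ on the strand of the gene from RefSeq, build GRCm38.p6, with CpG dinucleotides in capitals. Cux2 has 2 listed starts.
Tbr1, chr2:61804203-61804452, plus strand: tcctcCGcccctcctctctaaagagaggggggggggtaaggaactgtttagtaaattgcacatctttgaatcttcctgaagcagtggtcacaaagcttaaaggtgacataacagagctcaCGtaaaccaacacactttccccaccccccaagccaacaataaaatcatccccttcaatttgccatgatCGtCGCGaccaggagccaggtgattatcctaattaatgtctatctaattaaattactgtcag
Cux1, chr5:136565982-136566231, minus strand: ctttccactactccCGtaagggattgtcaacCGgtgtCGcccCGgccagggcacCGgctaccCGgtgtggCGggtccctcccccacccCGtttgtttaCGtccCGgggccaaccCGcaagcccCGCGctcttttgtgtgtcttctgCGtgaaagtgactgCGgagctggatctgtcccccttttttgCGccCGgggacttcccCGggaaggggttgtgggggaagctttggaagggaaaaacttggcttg
Cux2, outer start, chr5:122049852-122050101, minus strand: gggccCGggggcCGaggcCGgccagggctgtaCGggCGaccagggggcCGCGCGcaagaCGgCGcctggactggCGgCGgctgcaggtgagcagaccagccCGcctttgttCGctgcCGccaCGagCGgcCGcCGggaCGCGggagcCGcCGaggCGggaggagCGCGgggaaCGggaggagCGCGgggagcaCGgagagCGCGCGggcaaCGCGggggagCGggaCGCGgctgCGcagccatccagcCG
Cux2, inner start, chr5:122047826-122048075, minus strand: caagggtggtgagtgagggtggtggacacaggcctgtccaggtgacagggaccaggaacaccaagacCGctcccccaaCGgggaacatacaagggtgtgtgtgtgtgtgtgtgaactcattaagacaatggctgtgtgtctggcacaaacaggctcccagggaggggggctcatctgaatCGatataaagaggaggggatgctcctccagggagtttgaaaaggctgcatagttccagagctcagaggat
Pou3f2, chr4:22488367-22488616, minus strand: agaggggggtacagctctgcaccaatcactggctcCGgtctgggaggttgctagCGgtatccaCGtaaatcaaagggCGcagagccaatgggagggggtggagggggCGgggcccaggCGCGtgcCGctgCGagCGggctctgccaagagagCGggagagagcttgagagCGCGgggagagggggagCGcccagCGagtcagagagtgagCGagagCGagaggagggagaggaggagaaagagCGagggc
Pou3f3, chr1:42695518-42695767, plus strand: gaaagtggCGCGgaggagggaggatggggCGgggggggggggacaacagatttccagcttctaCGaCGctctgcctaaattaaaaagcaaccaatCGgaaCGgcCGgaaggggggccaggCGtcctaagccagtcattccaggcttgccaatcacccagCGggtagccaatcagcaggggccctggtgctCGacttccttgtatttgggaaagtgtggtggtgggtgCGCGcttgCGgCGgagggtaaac
Fezf2, chr14:12345866-12346115, minus strand: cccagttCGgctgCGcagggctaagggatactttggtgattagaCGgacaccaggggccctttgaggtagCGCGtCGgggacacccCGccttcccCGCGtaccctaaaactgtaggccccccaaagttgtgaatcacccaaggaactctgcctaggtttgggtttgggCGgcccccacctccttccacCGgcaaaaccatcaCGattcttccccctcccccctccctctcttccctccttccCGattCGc

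After depolarization, BRG1/BRM islands lay at an end of each of the 9 factor genes, most often the end where transcription begins. Further islands lay inside the long genes Sox5, Cux1, Cux2, Bcl11b and Zfpm2. All 9 genes had a KCl island within 2 kb of an end, against 25.2% of the 21887 protein-coding genes. The share depends on gene length, and it was 17.5% among genes under 20 kb (here Tbr1, Fezf2, Pou3f2 and Pou3f3), 44.1% among genes of 90 to 500 kb (Bcl11b, Zfpm2, Cux1 and Cux2) and 55.9% among genes of at least 500 kb (Sox5). All 9 also had an island somewhere in the 100 kb window, as did 73.1% of protein-coding genes (64.4%, 92.3% and 99.6% in the same length classes, short to long). An island overlapped the gene body in 9 of 9, against 31.1% of protein-coding genes of all lengths. In basal neurons 0 of 9 had an island at an end (0.411% of all genes) and 3 of 9 had one in the window (4.71%). Because the members were chosen with earlier results of these data known, these contrasts with all genes are descriptions and were not tested.

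**Figure D1:**
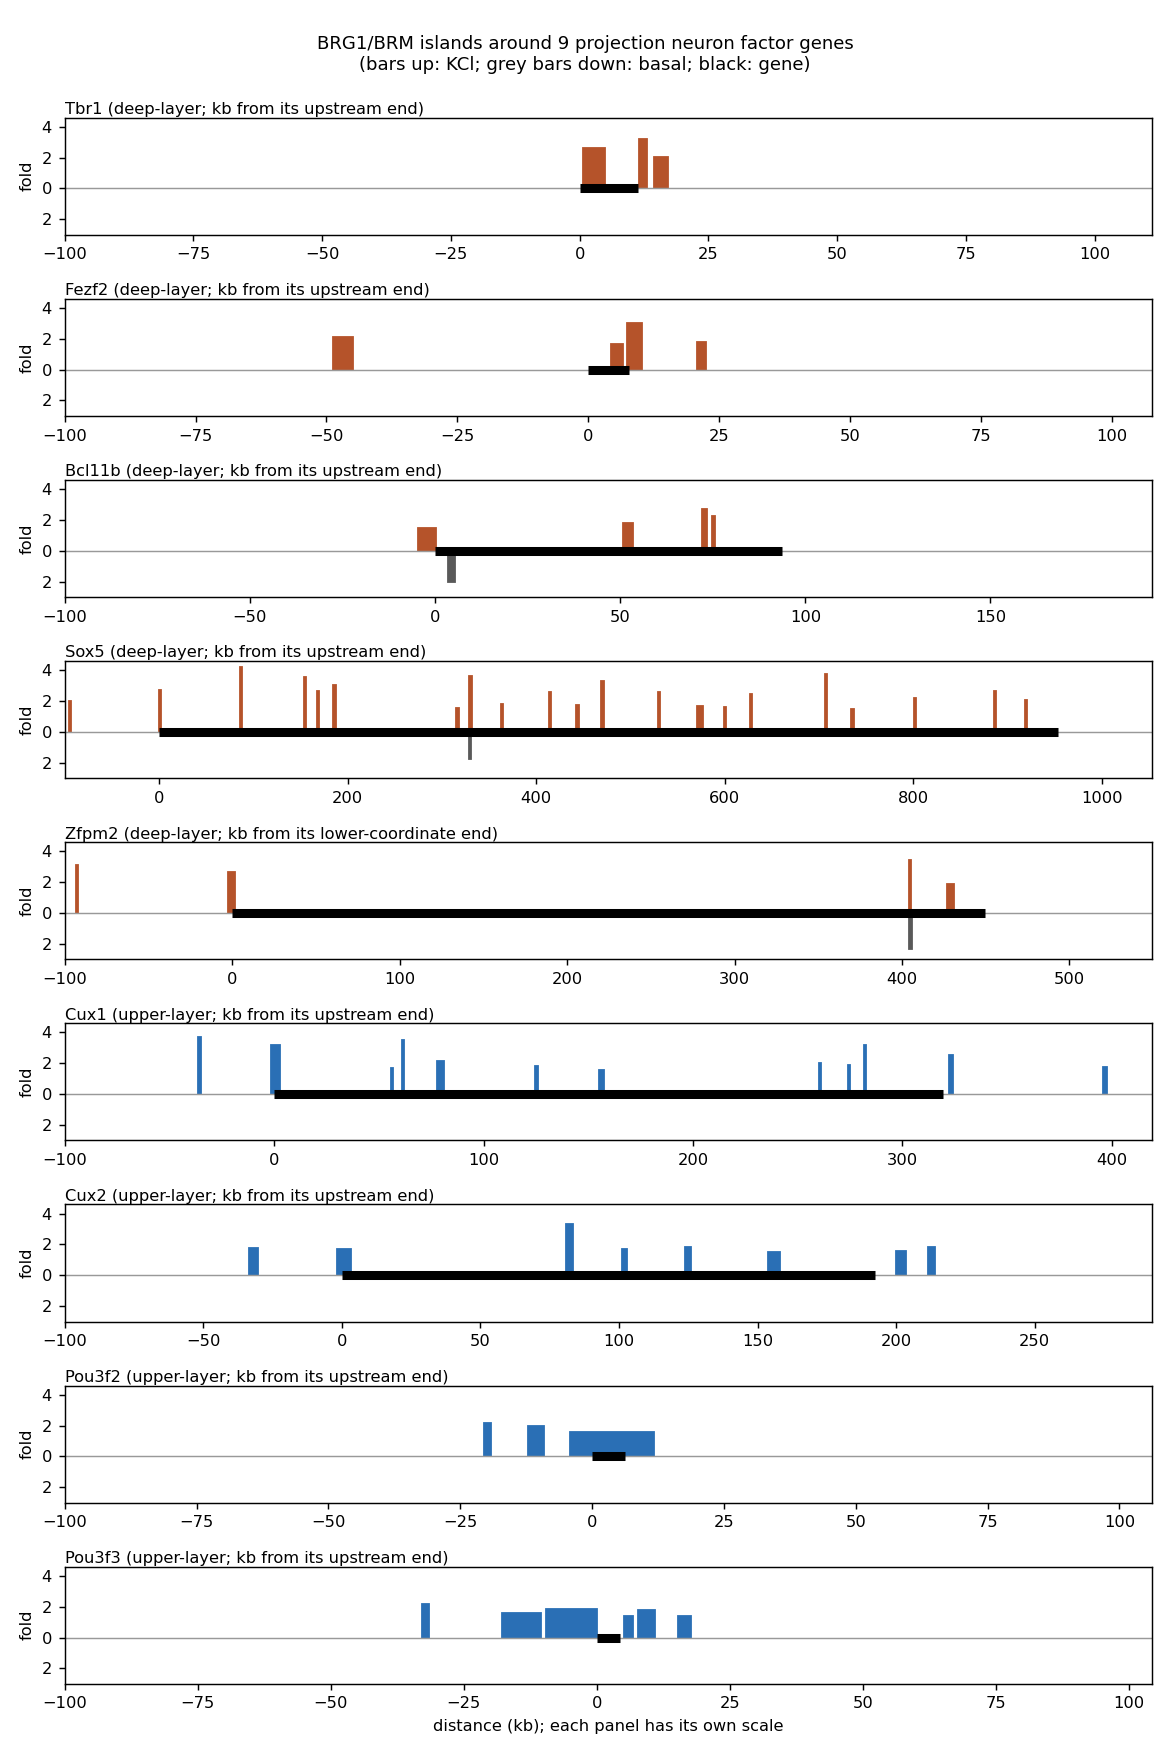
Islands around each gene, with the distance from the upstream end of the gene in kb on the x axis (from the lower-coordinate end for Zfpm2) and the fold over control on the y axis. Bars above the line are KCl islands (brown for deep-layer, blue for upper-layer genes), grey bars below it are basal islands, and the black line is the gene; bars narrower than 0.2% of a window are drawn at that width. Every gene has a KCl island at an end, and the 3 grey bars lie inside Bcl11b, Sox5 and Zfpm2.

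Upstream and downstream ends could be told apart for the 8 members with a RefSeq promoter entry, which excludes Zfpm2. A KCl island lay within 2 kb of the upstream end in 7 of 8, against 22.7% of the protein-coding genes with such an entry. One lay within 2 kb of the downstream end in 4 of 8, against 5.08%. Both shares are over genes of all lengths. The 4 genes with a downstream island were Tbr1, Fezf2, Pou3f2 and Pou3f3, the short ones, and among genes under 20 kb the downstream share was 6.07%. Both ends had an island in 3 of 8, against 2.75% of such genes of all lengths. The 3 genes were Tbr1, Pou3f2 and Pou3f3, all short, and at Pou3f2 the same island reached both ends. The listed start itself lay under a KCl island at Tbr1, Cux1, Cux2, Pou3f2 and Pou3f3, 5 of 8 genes, against 22.1% of protein-coding genes. At a basal island the count was 0 of 8, against 0.194%.

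Among the deep-layer factors, Tbr1 had an island within 2 kb of each end and none over the ends themselves. An island of 4200 bp with 117 IP and 28 control reads lay over its listed start, beginning 738 bp inside the gene (2.62-fold [1.73 to 4.12]). A second, of 1600 bp, lay 287 bp beyond the downstream end with 46 IP and 9 control reads (3.21-fold [1.55 to 7.46]). The third and last island of its window lay 3287 bp beyond that end (2.04-fold [1.28 to 3.37]). The 3 intervals overlap, so the islands of Tbr1 could not be ranked.

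At Fezf2 the islands lay at the downstream end and in the downstream part of the gene. The island over the downstream end was 2800 bp wide and held 140 IP and 29 control reads (3.03-fold [2.02 to 4.69]). Beside it, an island of 2200 bp inside the gene held 59 IP and 22 control reads (1.68-fold [1.02 to 2.89]). Its edge nearest to the listed start was 3465 bp away, and no KCl island lay within 2 kb of the upstream end. The widest island of the window, 3800 bp, lay upstream within the neighbouring gene Cadps, 44998 bp from Fezf2 (2.14-fold [1.49 to 3.14]).

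The end island of Bcl11b had the lowest fold among those of the deep-layer genes, with an interval that overlapped all of theirs. It was 4800 bp wide with 98 IP and 42 control reads (1.47-fold [1.01 to 2.16]), covered the upstream end and stopped 587 bp short of the listed start. The 3 other KCl islands lay inside the gene, and the one with the highest lower limit held 43 IP and 10 control reads (2.70-fold [1.34 to 6.03]).

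Sox5 carried the most islands of the 9 genes. Of its 21 KCl islands, 19 lay inside the gene away from its ends, 1 over the upstream end and 1 outside, and only 20 of all protein-coding genes had more in their window. The gene is 954 kb long, and per Mb of window the count was 18.2, a value that 11.9% of protein-coding genes exceeded. The upstream end island of 1400 bp held 52 IP and 12 control reads (2.72-fold [1.43 to 5.60]). Folds inside the gene ran from 1.48 to 4.22, and the island with the highest lower limit held 138 IP and 26 control reads (3.33-fold [2.18 to 5.28], chromosome 6, 144310001 to 144313200). The widest, 6000 bp, overlapped the noncoding gene Gm38531 (1.68-fold [1.24 to 2.29]). Gaps between neighbouring islands had a median of 36.0 kb and ran from 11.0 to 129 kb. The RefSeq start listed for Sox5 lay 835 kb inside the gene, with the nearest KCl island 32.7 kb away.

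Zfpm2 had the lowest island density and the lowest covered share of the 9 genes. It had 4 KCl islands in a window of 0.650 Mb, or 6.16 per Mb, below the median of 6.81 over all protein-coding genes. Its islands covered 1.57% of the window, above the median of 1.33% over all protein-coding genes. The island over its lower-coordinate end was 4400 bp wide with 109 IP and 26 control reads (2.63-fold [1.70 to 4.21]). Inside the gene, an island of 1000 bp with 44 IP and 8 control reads (3.45-fold [1.61 to 8.50]) lay where basal neurons also had one.

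Of the upper-layer factors, Cux1 had the end island with the highest fold. It was 4400 bp wide, covered the upstream end and the listed start, and held 132 IP and 26 control reads (3.19-fold [2.08 to 5.06]). The gene had 12 KCl islands in its window, 8 of them inside, and 101 protein-coding genes had more. Per Mb of window the count was 23.1, a value that 5.12% of protein-coding genes exceeded. The distal island with the highest lower limit lay 35011 bp upstream of the gene (3.71-fold [1.88 to 8.13]). Inside Cux1 the folds ranged from 1.55 to 3.52, and 4 of the 8 intervals included 1.

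Cux2, the paralogue of Cux1, had 8 KCl islands, and 349 protein-coding genes had more. Per Mb of window it had 20.4, and 7.01% of protein-coding genes had more. Its end island of 5000 bp lay over both listed starts with 145 IP and 54 control reads (1.69-fold [1.23 to 2.35]). The highest fold was inside the gene, at an island with 116 IP and 22 control reads (3.31-fold [2.09 to 5.49], chromosome 5, 121967001 to 121969400). The intervals of the end islands of Cux1 and Cux2 overlap between 2.08 and 2.35.

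At the short POU genes the islands were broad. A KCl island of 16000 bp held 406 IP and 160 control reads over the whole of Pou3f2 and both its ends (1.59-fold [1.32 to 1.93], chromosome 4, 22476601 to 22492600). Only 10 KCl islands were wider, and 0.498% of protein-coding genes were wholly covered by KCl islands. The other 2 islands of Pou3f2 lay upstream, and the stronger by lower limit was 1.99-fold enriched [1.300 to 3.14].

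Pou3f3 was flanked by islands rather than covered. An island of 9600 bp with 315 IP and 105 control reads (1.88-fold [1.51 to 2.37], chromosome 1, 42686201 to 42695800) lay upstream and reached 32 bp past the listed start, so that 0.743% of the gene body was under an island. It overlapped the noncoding genes Pantr1 and Gm46091, as did the next island upstream, of 7200 bp (1.61-fold [1.25 to 2.10]). Beyond the downstream end an island of 1800 bp held 50 IP and 22 control reads (1.43-fold [0.849 to 2.48]), with an interval that included 1. With 6 islands in 50.4 kb, Pou3f3 had 29.3 islands per Mb of window, and 1.52% of protein-coding genes had more. Islands of at least 9600 bp, the width of this one, made up 0.272% of the KCl list, and 2 of the 65 islands here were among them.

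**Figure D2:**
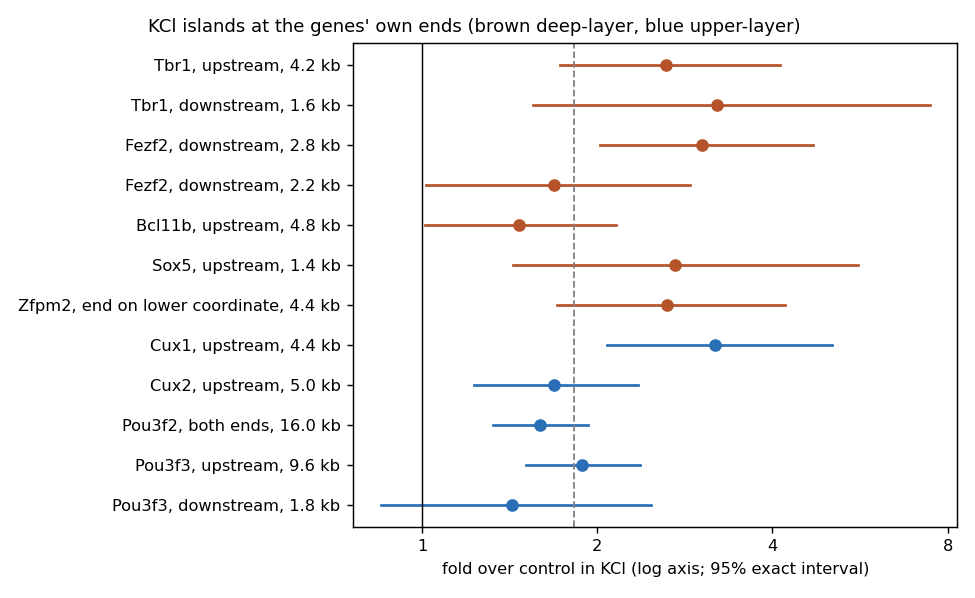
Fold over control in KCl (x axis, log scale) of the 12 islands at the genes' own ends, with the 95% exact interval as a line, deep-layer genes in brown above upper-layer genes in blue. The dashed line is the median of all KCl islands at gene ends, 1.82; 5 of 7 deep-layer islands and 2 of 5 upper-layer islands lie above it, and the only interval that reaches below 1 is that of Pou3f3, downstream.

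Pooled by layer, deep-layer islands had the higher median fold, and upper-layer windows had the larger share under islands. Single genes overlapped in both measures. The median fold was 1.98 at Fezf2 and 2.04 at Bcl11b among deep-layer genes, against 2.09 at Cux1 and 1.99 at Pou3f2 among upper-layer genes. The covered share was 5.10% at Fezf2 and 3.98% at Tbr1, against 3.89% at Cux1. Over all 36 deep-layer islands the median fold was 2.51 (range 1.47 to 4.22), and over the 29 upper-layer islands it was 1.81 (1.38 to 3.71), against 2.398 for the KCl list. The ratio of these medians was 1.38 [1.12 to 1.49]. The bracket is the order-statistic interval of the deep-layer median with the upper-layer median held. It treats islands of the same gene as separate draws and gives the upper-layer median no error, so it does not measure the error of the class contrast. Reads summed over each class gave 2.26-fold [2.08 to 2.46] for deep-layer and 1.86-fold [1.73 to 2.01] for upper-layer islands. These 2 intervals cover counting error only and leave out the spread between genes. At own ends the medians were 2.63 for 7 deep-layer islands and 1.69 for 5 upper-layer islands. Without Sox5, which holds 21 of the 36 deep-layer islands, the ratio of medians over all islands was 1.26. Genes are not replicates and each class has few, so the difference between the classes was not tested.

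The order was the opposite for cover. Deep-layer windows had 14.3 KCl islands per Mb and upper-layer windows 21.9 per Mb, which makes the deep-layer density 0.653 times the upper-layer one [0.389 to 1.103], an interval from island counts that includes 1. Islands covered 31.2 kb per Mb of deep-layer window and 69.0 kb per Mb of upper-layer window. Pou3f3 (12.4% of its window) and Pou3f2 (9.89%) had the highest cover, exceeded by 61 and 140 protein-coding genes. With each gene left out in turn, the ratio of these covered shares ran from 0.353 to 0.531. Median width was 1600 bp for deep-layer and 2200 bp for upper-layer islands, but without Sox5 the order turned, at 2600 bp for the 15 remaining deep-layer islands and 2200 bp for upper-layer islands. Median control density was 9.42 reads per kb in deep-layer and 10 in upper-layer islands, and median IP density was 32.8 reads per kb in deep-layer and 29.2 in upper-layer islands.

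**Figure D3:**
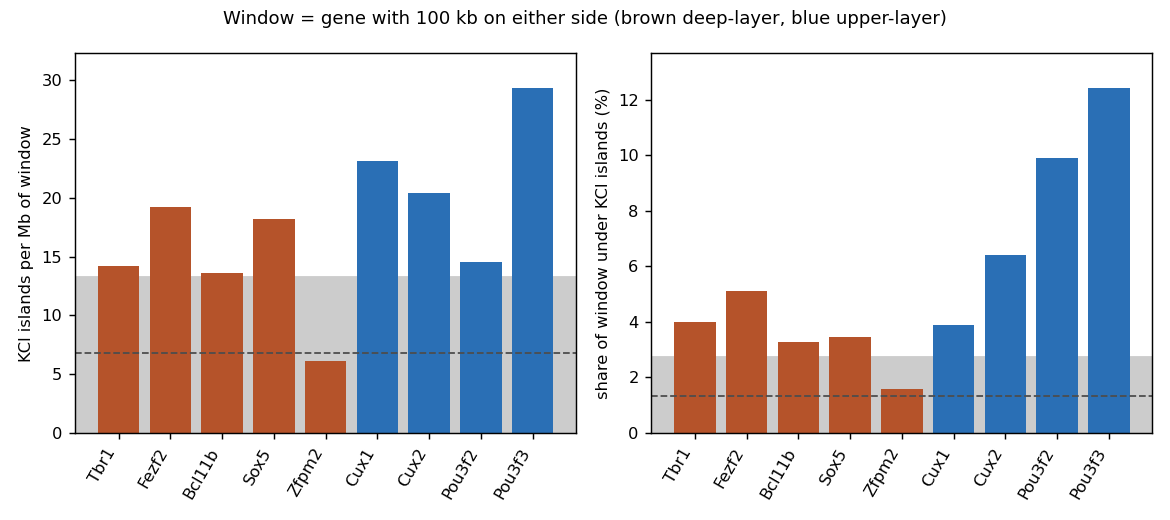
KCl islands per Mb of window (left) and the share of the window under KCl islands in percent (right) for each gene, deep-layer in brown and upper-layer in blue. The dashed line and grey band are the median and interquartile range over all protein-coding genes; 8 of the 9 genes lie above the band in both panels and Zfpm2 lies within it.

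The next comparison set islands at the genes' own ends against distal ones, which lay inside the gene or outside it and more than 2 kb from any protein-coding gene end. Own-end islands had the larger median width, and their folds overlapped with those of distal islands. The 12 own-end islands had a median fold of 2.25 (range 1.43 to 3.21) and a median width of 4300 bp. The 48 distal islands had a median fold of 2.09 (1.38 to 4.22) and a median width of 1600 bp. The ratio of median folds was 1.08 [0.761 to 1.45]. The bracket is the order-statistic interval of the own-end median with the distal median held, and it treats islands as separate draws. In the KCl list gene-end islands had a median fold of 1.82 and the remaining islands one of 2.67, a ratio of 0.684. Gene-end islands were the wider ones in the whole list too, with a median of 2400 bp against 1400 bp for the remaining islands. The larger width at own ends is thus not particular to these genes. The layer classes lay on opposite sides of 1, with a median of 2.63 at own ends and 2.37 in distal islands for deep-layer genes (ratio 1.11), and of 1.69 at own ends and 1.85 in distal islands for upper-layer genes (ratio 0.912). The IP density behind these folds was 28.3 reads per kb at own ends and 32.8 in distal islands, and the control density was 9.38 reads per kb at own ends and 10 in distal islands. With gene ends widened to 5 kb the ratio was 0.954, on the other side of 1, and whether it differs from that of the list was not tested.

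The median fold of the 65 islands was 2.04, below the 2.398 of the KCl list. Inside the genes, 36 islands had a median of 2.18, against 2.55 for all KCl islands inside genes away from their ends. Outside, 12 islands had a median of 2.04. In all, 35 of the 65 islands were at least 2-fold enriched, against 66.6% of the KCl list, and the interval lay above 1 for 54 of 65, against 86.4%. An FDR of at most 1e-05 was reached by 45 of 65 islands, against 76.9%, and by an end island at 8 of 9 genes, against 15.1%. An end island of at least 2-fold was present at 5 of 9 genes, namely Tbr1, Fezf2, Sox5, Zfpm2 and Cux1, against 8.74% of protein-coding genes. Of the 48 distal islands, 10 overlapped a gene that is not protein-coding, against 13.9% of the KCl islands away from gene ends.

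**Figure D4:**
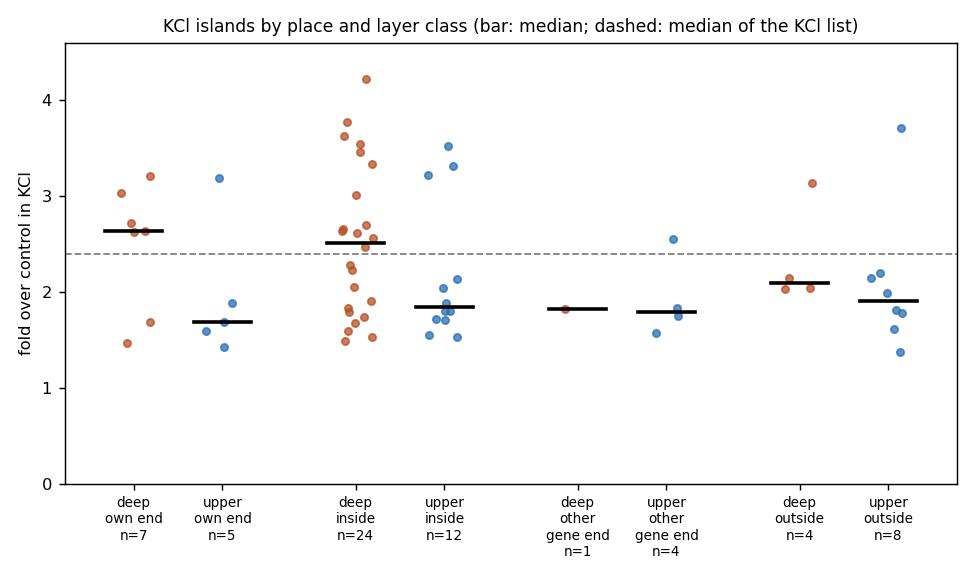
Fold over control of the 65 KCl islands (y axis) by place and layer class, each point 1 island, with black bars for medians and the median of the KCl list, 2.398, as a dashed line. Deep-layer medians are above upper-layer medians in all 4 places, where the third place holds 1 deep-layer island; own-end medians are 2.63 for deep-layer and 1.69 for upper-layer genes.

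In basal neurons the islands near these genes were 3, and they lay inside Bcl11b, Sox5 and Zfpm2, all deep-layer genes, away from their ends. Of the 3, 0 reached an FDR of 1e-05 (28.3% of the basal list did), and 2 of 3 were at least 2-fold enriched (36.4%). A basal island lay in the body of 1.27% of protein-coding genes and within the window of 23.8% of genes of at least 500 kb, 8.89% of genes of 90 to 500 kb and 3.63% of genes under 20 kb. In Sox5 a KCl island of 800 bp with 75 IP and 13 control reads (3.62-fold [1.996 to 7.12]) lay inside a basal island of 2400 bp with 53 IP and 34 control reads (1.77-fold [1.13 to 2.81], chromosome 6, 144451401 to 144453800). In Zfpm2 the KCl island was 3.45-fold enriched [1.61 to 8.50], and the basal island of 1400 bp held 33 IP and 16 control reads (2.34-fold [1.25 to 4.56], chromosome 15, 41059401 to 41060800). Each list has its own scaling constant, and in both genes the intervals of KCl and basal overlap.

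At Bcl11b no KCl island overlapped the basal one. The basal island of 1800 bp held 41 IP and 23 control reads (2.03-fold [1.19 to 3.54], chromosome 12, 107998801 to 108000600) and began 2814 bp downstream of the listed start. The nearest KCl island was the one at the upstream end, 3400 bp away. Overlap thus held for 2 of 65 KCl islands (3.08% [0.375 to 10.7]), against 2.15% of the KCl list, and for 2 of 3 basal islands (66.7% [9.43 to 99.2]), against 63.2% of the basal list. The 4 upper-layer genes had no basal island in their windows, and a missing call does not show that binding was absent.

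Promoters with a KCl island over the start were richer in CpG over the whole annotation, and the members fell on both sides. The median CpG count in the 250 bases before the start was 19 for 4661 protein-coding promoters under a KCl island and 6 for 16602 promoters under none. Among covered starts shown above, the count was 40 at the outer start of Cux2, 18 at Cux1 and at Pou3f2, 15 at Pou3f3, 5 at Tbr1 and 3 at the inner start of Cux2. Among uncovered starts it was 14 at Fezf2, 9 at Bcl11b and 3 at the internal start of Sox5. Tbr1 was thus covered with fewer CpGs than Fezf2, which was not.

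**Figure D5:**
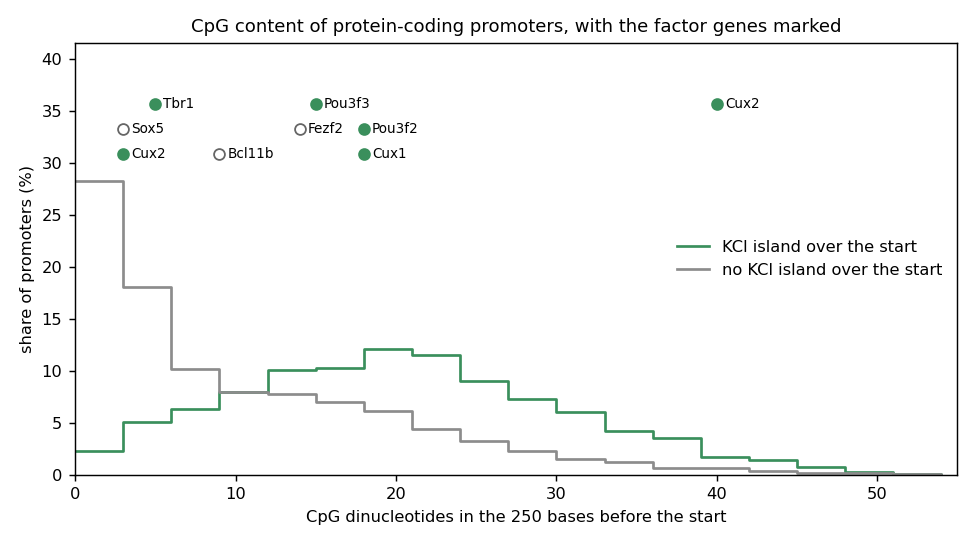
Share of protein-coding promoters (y axis, percent) by the number of CpG dinucleotides in the 250 bases before the start (x axis, bins of 3), for promoters with a KCl island over the start (green) and without (grey). Points mark the listed starts of the factor genes, filled where a KCl island covers them; they range from 3 for Sox5 and the inner start of Cux2 to 40 for the outer start of Cux2.

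Short motifs were searched on both strands of the same windows. TGAGTCA and TGACTCA (AP-1), TGACGTCA (the cAMP response element), ATGCAAAT (the octamer of POU factors) and AGGTGTGA (a T-box element) were in 0 of the 9 windows, against 4.06%, 1.92%, 1.58% and 0.997% of all protein-coding promoters in that order. CAGATG or CATATG (E-boxes of proneural factors) occurred once, as CATCTG on the printed strand 79 bases before the inner start of Cux2, against 14.8% of promoters. These letters describe the windows only.

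BRG1/BRM islands were also frequent at other genes of projection neuron identity. Of 40 such genes, 32 had a KCl island at an end, against 25.2% of all protein-coding genes. Of the 31 with a listed start, 23 had it under a KCl island, against 22.1%. The median number of KCl islands in the window was 5, against 2 over all protein-coding genes. This list, too, was chosen with earlier results of these data known. By the lower limit of the fold, the leading end islands were those of Tshz3, a zinc finger factor (6.91-fold [2.52 to 26.5], 44 IP and 4 control reads), Lmo4, a LIM-only protein (2.40-fold [1.73 to 3.40]), and Nr2f1, a nuclear receptor that patterns cortical areas (2.05-fold [1.67 to 2.52]). Basal islands lay in the window of 4 of the 40, against 4.71% of all protein-coding genes, and at an end of 0, against 0.411%.

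Genes of other cell types that the cultures could hold were counted in the same way. An end island was present at 1 of 12 interneuron, 3 of 6 astrocyte, 2 of 6 oligodendrocyte lineage and 0 of 6 microglia genes, against 25.2% of all protein-coding genes. It was present at 5 of 6 further neuronal genes, of which Slc17a7, Slc17a6 and Camk2a mark excitatory neurons, while Tubb3, Map2 and Rbfox3 are shared by neurons of all kinds, interneurons included. The lists differ in gene length, from a median of 7.15 kb for interneuron genes to 56.1 kb for these 6, and the differences between them were not tested. Islands show occupancy and not expression, so these counts do not check which cells were present.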

How the data were processed

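BRG1/BRM ChIP-seq of mouse cortical neurons was analysed from the island lists of 2 IP samples, 1 per condition. Per the submitters' processing notes, BWA and SICER 1.0 were used with mm10 (GRCm38). File names give the SICER settings as 200 bp windows, 600 bp gaps and FDR 0.01. For each island the authors deposited raw read counts (IP and control), a p-value and an FDR against the control, and the fold, a ratio of IP to control reads over a constant (1.59 for KCl, 0.880 for basal). Which input was the control of a list is not given in the sources used here, and each list was called on its own. List length depends on library depth and is not compared as binding.

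Coordinates were made 1-based. Genes were the 21887 nuclear protein-coding genes of RefSeq GRCm38.p6, and starts, strands and promoter sequences came from RefSeq on the same build (8 of 9 members matched). An island was at an end when within 2 kb of either end of the gene, and overlap needed 1 bp. Python 3.11.15, numpy 2.4.6, pandas 2.3.3 and scipy 1.17.1 were used, and the counting and interval code was tested on simulated data. With 1 library per condition there was no test. Counts and medians are set beside those of all genes or islands. Members, gene lists and rules were chosen with earlier results of these data known. Named islands were, for each member, those at its ends, its basal islands, and by lower limit of the fold or width its first islands. Of the other genes, up to 3 were named by lower limit at an end. Alternatives changed the FDR, fold, window, gene end, overlap and gene set.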

Additional observations from a re-analysis of the deposited data

How the results depend on the processing

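Under other settings 74 recomputed values stayed near the main value, 8 moved further and 1 reversed. Near meant within the interval for a ratio that has one, and within 1.5 times the value otherwise. With an FDR of at most 1e-05, 0 basal islands remained near the 9 genes, and so 0 overlapped ones, while 45 KCl islands and end islands at 8 of 9 genes (all but Bcl11b) passed. A fold of at least 2 left 35 KCl islands, 5 of 9 genes with an end island, and 1 overlapped basal island. Requiring KCl islands to cover at least 50% of a basal island also left 1, at Zfpm2. When the island had to lie over a listed start, a setting chosen after the data were seen, the count was 5 genes of the 8 with a start. The deep-layer over upper-layer ratio of median fold was 1.56 at own ends only, also chosen after the data were seen. Over the other settings, including each gene left out in turn, it ran from 1.26 to 1.43. The ratio of island density ran from 0.502 without Sox5 to 0.866 with the stricter FDR. Measured in covered bases instead, a setting added after the data were seen, it was 0.453. The ratio of own-end to distal fold was 0.954 with a gene end window of 5 kb, 1.25 with one of 1 kb, and, in a split added after the data were seen, 1.11 for deep-layer and 0.912 for upper-layer genes, so its side of 1 depended on both. The ratio of median width, 0.727, reversed to 1.18 without Sox5 and was 0.5 to 0.889 with any other gene left out; leaving out genes was also added after the data were seen. No paired analysis was possible because each condition has 1 library. Folds of islands with few control reads have wide intervals, and total depth is not given in the sources used here.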

Other observations

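Of the 65 KCl islands, 5 lay at the ends of neighbouring protein-coding genes. On the Cux1 side these were an island near Sh2b2, which encodes an adaptor protein of receptor tyrosine kinase signalling (2.55-fold [1.46 to 4.72]), and one at Orai2, which encodes a store-operated calcium channel subunit (1.74-fold [1.00 to 3.18]). Near Cux2 they lay at Sh2b3, a second adaptor gene of the same family (1.83-fold [1.11 to 3.12]), and at Pheta1 (1.57-fold [1.03 to 2.45]). Cux1 and Cux2 are paralogues, and each has an SH2B gene with a KCl end island as a neighbour. The fifth lay at 3830406C13Rik, beside Fezf2 (1.82-fold [1.08 to 3.20]).

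The only island of the 65 in the 1% of the KCl list with the highest control density lay inside Cux1 and had the lowest lower limit of all (1.71-fold [0.834 to 3.79]).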
